A study of Arabidopsis thaliana with 12 samples.

Results

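Transcripts of 41 genes were near-silent in developing wild-type Arabidopsis thaliana seeds and on in seeds of the mutant dellaq. Of 33602 deposited gene IDs, the 33323 that start with AT1G to AT5G (the nuclear chromosomes) were screened by 3 conditions: a mean of 10 FPKM or more over the 3 dellaq libraries, and a mean below 2 FPKM in each of 2 wild-type sets, Col-0-1 and Col-0-2. FPKM is the number of sequenced fragments per kilobase of transcript, scaled to library size. The level in dellaq and in wild type therefore chose the genes and is given as a description, without a test. The level in the mutant lec1-4 was not used to choose them.

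The 12 libraries held 4 groups of 3: wild-type Col-0-1, wild-type Col-0-2, dellaq and lec1-4. Seeds were collected 9 days after pollination from plants grown at 22 °C under 16 h of light per day, and no group received an added agent. The labels define dellaq and lec1-4 only by these names, list no alleles, and do not say which wild-type set was grown beside which mutant. They also do not say that replicates were separate plants, and the p-values below reflect only how these samples spread, which may be technical variation.

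DELLA proteins are nuclear repressors of gibberellin responses, and gibberellin triggers their degradation. LEC1 is a subunit of the nuclear factor Y complex that promotes embryo maturation. During maturation the embryo deposits storage proteins and oil, and later accumulates late embryogenesis abundant (LEA) proteins, hydrophilic proteins tied to the survival of drying. Abscisic acid and B3-domain factors such as ABI3, FUS3 and LEC2 activate many of these genes, through ACGTG-containing elements and the RY element, respectively.

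Sequencing depth, relative to Col-0-1 replicate 1, lay between 0.925 and 1.31, an estimated 13.2 M to 18.6 M fragments. LEC1 itself measured 2.63, 2.38 and 3.42 FPKM in lec1-4, against 67.5 to 124 FPKM in the wild-type libraries. Among DELLA genes, RGL1 measured 1.05 to 1.61 FPKM in dellaq and 8.43 to 14.5 FPKM in wild type, and RGL2 measured 3.74 to 6.01 and 16.1 to 26.1 FPKM. The labels do not say which DELLA genes are affected, and levels of other DELLA genes are not given here. Markers of other seed tissues differed between the groups. Over 7 seed coat markers the summed level was 856 to 1013 FPKM in dellaq and 1595 to 1793 FPKM in wild type, and over 7 endosperm markers it was 25.8 to 33.2 and 67.1 to 98.3 FPKM. Over 8 silique wall markers it was 106 to 128 FPKM in dellaq and 146 to 208 FPKM in wild type, and over 5 embryo markers it was 595 to 674 and 343 to 541 FPKM. TT10 made up most of the dellaq seed coat sum, at 641 FPKM, where Col-0-1 had 791 and Col-0-2 had 560 FPKM. By the test described below, 6 of the 7 seed coat markers were lower in dellaq than in Col-0-2 and 1 was higher. The shares over all genes tested were 41.6% and 21.9%. NF-YB6 made up most of the dellaq embryo sum, at 370 FPKM, where Col-0-1 had 232 and Col-0-2 had 97.8 FPKM. Of the 5 embryo markers, 1 was higher and 1 lower in dellaq than in Col-0-1 (3 and 1 with median-ratio scaling). Over all genes tested, 19.4% were higher and 50.9% lower. Against Col-0-2, 2 were higher and 3 lower (2 and 2 with median-ratio scaling), where 21.9% and 41.6% of all genes were. LEC1 measured 44.6, 114 and 53.1 FPKM in dellaq, a mean of 70.5 FPKM against 80.5 and 124. In lec1-4 the same sums were 1784 to 1917 (seed coat), 71.7 to 77.5 (endosperm), 200 to 225 (silique wall) and 255 to 279 FPKM (embryo, a sum that includes LEC1 itself). The sum over 7 pollen markers was 14.4 to 26.3 FPKM in dellaq, 27.9 to 51.4 in lec1-4, 46.2 to 66.4 in Col-0-1 and 6.48 to 11.4 in Col-0-2. No marker on these lists was at 0 in all libraries of a group, and their part in the levels below was not tested. In bulk seeds, fewer cells of a type and less RNA per cell cannot be told apart. Plastid-encoded transcripts summed to 127 to 251 FPKM in Col-0-1 and lec1-4 and to 4523 to 8593 FPKM in Col-0-2 and dellaq, so the libraries split in a way that crosses genotype, and its part in the results was not tested either.

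Of the 41 genes, 40 are protein-coding and 1, AT1G10705, is annotated as a pseudogene. They were sorted by annotated product, after the genes were known. The groups comprised 7 LEA proteins, 3 storage or oil body proteins, 3 regulators or abscisic acid response genes, 4 genes of lipid transfer, wax or lipid oxidation, and 4 of redox, detoxification or metal binding. There were also 2 defensins, 3 glycine-rich, proline-rich or extensin proteins, 2 membrane proteins, 2 polyketide cyclase family proteins, 1 iron-sulfur cluster protein and 9 uncharacterized proteins. Mean levels in dellaq ran from 10.3 to 192 FPKM, with a median of 18.0. The medians were 0.716 FPKM in Col-0-1, 0.238 FPKM in Col-0-2 and 0.457 FPKM in lec1-4. Of the 246 wild-type values, 60 were 0. Each dellaq library exceeded all 6 wild-type libraries in 41 of 41 genes, against 10.5% of all genes tested, a count that the choice of genes largely sets.

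**Figure D1:**
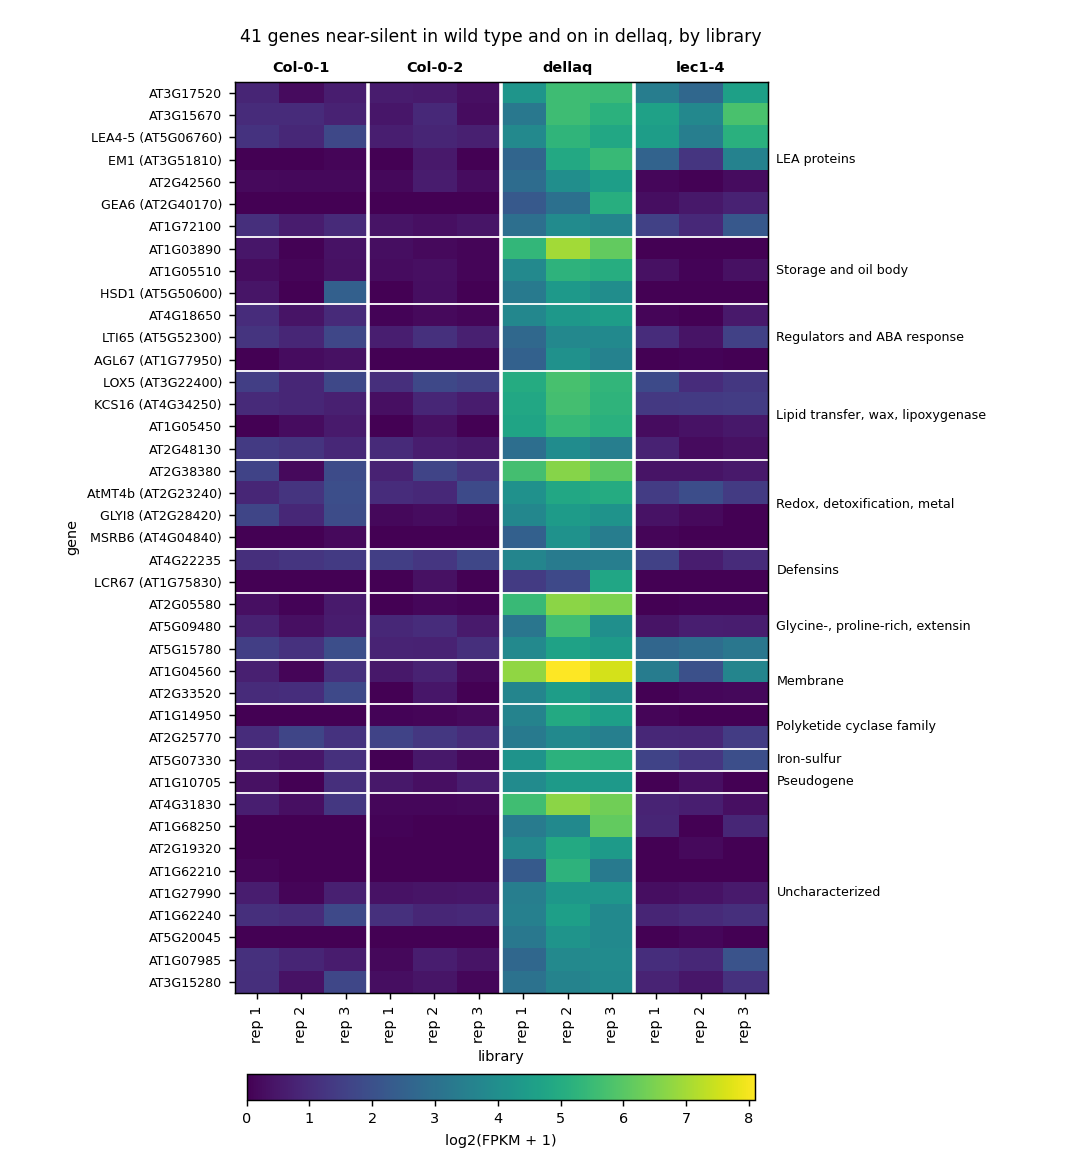
Level of each of the 41 genes (vertical axis, grouped by annotated product) in each of the 12 libraries (horizontal axis), as log2(FPKM + 1) on the colour scale. Each dellaq column is brighter than every wild-type column in every row. The dellaq columns are uneven, with LCR67 at only 1.67 and 2.47 FPKM in replicates 1 and 2. The lec1-4 columns are bright mainly in some LEA protein genes, AT5G15780 and AT1G04560.

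The upstream regions of 4 of the genes are shown as examples, and no later result rests on them. The window of AT2G05580, which had a slightly higher dellaq mean than AT1G03890, is described below but not printed. AT1G04560 had the highest level in dellaq, AT1G03890 had a high level in dellaq and 0 in lec1-4, and AT3G15670 and LEA4-5 had the highest levels in lec1-4. Each is the 250 bases upstream of the gene start annotated by RefSeq on TAIR10.1, read 5′ to 3′ on the gene's strand. The authors' own build is not given in the sources used here, so the genes were looked up by locus tag. Capitals mark the RY element (CATGCA) and the core of the abscisic acid response element (ACGTG) on either strand. The windows are chr1:1244697-1244946 on the plus strand, chr1:988948-989197 on the plus strand, chr3:5310989-5311238 on the minus strand and chr5:2090431-2090680 on the minus strand.
AT1G04560: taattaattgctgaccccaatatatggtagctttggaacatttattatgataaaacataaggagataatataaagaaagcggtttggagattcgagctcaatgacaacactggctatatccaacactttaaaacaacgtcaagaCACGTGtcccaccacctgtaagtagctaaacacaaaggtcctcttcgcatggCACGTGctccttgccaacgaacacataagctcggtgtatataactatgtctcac
AT1G03890: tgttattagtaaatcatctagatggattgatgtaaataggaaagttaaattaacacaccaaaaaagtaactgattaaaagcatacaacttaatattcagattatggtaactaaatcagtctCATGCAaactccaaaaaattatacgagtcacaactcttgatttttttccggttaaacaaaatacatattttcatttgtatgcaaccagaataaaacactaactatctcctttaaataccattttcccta
AT3G15670: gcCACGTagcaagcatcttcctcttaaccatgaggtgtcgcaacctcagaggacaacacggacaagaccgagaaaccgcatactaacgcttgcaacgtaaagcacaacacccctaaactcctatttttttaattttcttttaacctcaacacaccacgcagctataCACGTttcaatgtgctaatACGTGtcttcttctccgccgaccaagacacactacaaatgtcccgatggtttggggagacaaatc
LEA4-5: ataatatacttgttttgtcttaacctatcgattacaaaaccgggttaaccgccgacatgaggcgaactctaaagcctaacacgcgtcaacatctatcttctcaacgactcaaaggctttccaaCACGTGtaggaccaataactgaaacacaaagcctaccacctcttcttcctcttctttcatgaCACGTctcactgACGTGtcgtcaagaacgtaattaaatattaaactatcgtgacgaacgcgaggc

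These 4 windows differ in their marked letters. The AT1G04560 window holds 2 complete G-boxes (CACGTG), each of which is an ACGTG core on both strands. The LEA4-5 window holds 1 G-box and further ACGTG cores, and the AT3G15670 window holds 3 ACGTG cores and no G-box. The AT1G03890 window holds 1 RY element and no ACGTG core. Other members differ from these examples. AT2G05580 averaged 79.3 FPKM in dellaq and 0.0429 FPKM in lec1-4, and its window holds 2 ACGTG cores and no RY element. The windows of HSD1 and AT1G05510, genes at or near 0 in lec1-4, each hold 1 RY element and 1 ACGTG core.

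The gene with the highest level in dellaq was AT1G04560, which encodes an AWPM-19-like membrane protein, a family named after a wheat plasma membrane protein. It measured 108, 274 and 192 FPKM in the dellaq libraries, 0.0784 to 1.18 FPKM in the 6 wild-type libraries, and 9.69, 2.91 and 11.9 FPKM in lec1-4. All 3 lec1-4 libraries lay above all wild-type libraries and below all dellaq libraries. Whole fragments could be recovered from the steps between FPKM values: the gene had 43 fragments over the 6 wild-type libraries, 7775 over the 3 dellaq libraries and 299 over the 3 lec1-4 libraries.

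The 3 highest means in lec1-4 were those of the LEA genes AT3G15670, LEA4-5 and AT3G17520, while other LEA genes were among the low ones there. AT3G15670 measured 8.43, 47.4 and 35.4 FPKM in dellaq, 0.197 to 0.990 FPKM in wild type, and 23.8, 12.9 and 53.9 FPKM in lec1-4. The lec1-4 range reached from inside the dellaq range to above its highest library. LEA4-5 (AT5G06760) measured 13.1, 38.9 and 27.8 FPKM in dellaq, 0.601 to 2.36 FPKM in wild type, and 21.8, 10.1 and 34.5 FPKM in lec1-4. AT3G17520 measured 17.8, 46.7 and 45.0 FPKM in dellaq, 0.186 to 0.808 FPKM in wild type, and 9.87, 5.51 and 23.3 FPKM in lec1-4. In LEA4-5 and AT3G17520 the dellaq and lec1-4 ranges also overlapped, and neither overlapped wild type.

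EM1 (AT3G51810) and GEA6 (AT2G40170, also known as EM6) encode the small Em-type LEA proteins of dry seeds. EM1 measured 5.26, 28.4 and 42.7 FPKM in dellaq, 0 to 0.477 FPKM in wild type with 4 of 6 libraries at 0, and 4.95, 1.39 and 11.01 FPKM in lec1-4. GEA6 was at 0 in all 6 wild-type libraries, and measured 3.76, 6.93 and 32.6 FPKM in dellaq and 0.224, 0.430 and 0.716 FPKM in lec1-4. Its dellaq mean of 14.4 ± 15.8 FPKM (SD, n = 3) was carried by replicate 3. A count of 3 over the 6 wild-type libraries would have given GEA6 a mean of 0.103 FPKM, the limit that the absence of fragments allows (counting error only).

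The remaining LEA members were AT2G42560 and AT1G72100. AT2G42560 measured 6.33, 14.9 and 22.4 FPKM in dellaq, 0.118 to 0.535 FPKM in wild type and 0.0945, 0.0302 and 0.201 FPKM in lec1-4. Its lec1-4 and wild-type ranges overlapped. AT1G72100 measured 6.78, 13.9 and 11.6 FPKM in dellaq, 0.260 to 1.14 FPKM in wild type, and 1.95, 0.915 and 3.71 FPKM in lec1-4, where replicate 2 lay within the wild-type range.

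The storage and oil body genes were high in dellaq and at or near 0 in lec1-4. AT1G03890, a cupin of the cruciferin storage globulin type, measured 40.1, 125 and 71.2 FPKM in dellaq, 0.0441 to 0.398 FPKM in wild type, and 0 in each lec1-4 library. A count of 3 over the lec1-4 libraries would have given it a mean of 0.0453 FPKM. AT1G05510, an oil body-associated protein, measured 13.2, 37.1 and 32.0 FPKM in dellaq, 0.0684 to 0.275 FPKM in wild type and 0.279, 0.0669 and 0.297 FPKM in lec1-4. HSD1 (AT5G50600), a steroleosin that sits on oil bodies, measured 8.86, 19.98 and 14.6 FPKM in dellaq and 0 in each lec1-4 library, with a limit of 0.0529 FPKM from 3 counts. In wild type HSD1 reached 4.61 FPKM in Col-0-1 replicate 3 and 0 to 0.362 FPKM in the other 5 libraries. A gene of the same name, AT5G50700, was listed at 0 in all 12 libraries, and how reads that match both were assigned is not given in the sources used here, so the HSD1 value is uncertain.

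Of the regulators, AT4G18650 is related to the dormancy gene DOG1, AGL67 (AT1G77950) is a MADS-box protein, and LTI65 (AT5G52300, also known as RD29B) is a classic abscisic acid-induced transcript. AT4G18650 measured 12.4, 19.2 and 21.9 FPKM in dellaq, 0.0651 to 1.02 FPKM in wild type and 0.0867, 0 and 0.461 FPKM in lec1-4. AGL67 measured 4.70, 16.1 and 11.01 FPKM in dellaq, against 0 to 0.277 FPKM in wild type and 0, 0.0672 and 0 FPKM in lec1-4. LTI65 measured 5.64, 12.9 and 13.4 FPKM in dellaq, 0.603 to 2.31 FPKM in wild type and 1.06, 0.338 and 1.98 FPKM in lec1-4. In each of these 3 genes the lec1-4 and wild-type ranges overlapped, and the dellaq libraries lay above both.

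Among the lipid-related genes, LOX5 (AT3G22400), a lipoxygenase, measured 30.6, 53.1 and 39.2 FPKM in dellaq, 0.811 to 2.41 FPKM in wild type and 2.55, 1.03 and 1.49 FPKM in lec1-4. KCS16 (AT4G34250), a ketoacyl-CoA synthase of the enzyme family that elongates very long chain fatty acids, measured 27.8, 50.1 and 37.6 FPKM in dellaq, 0.259 to 0.941 FPKM in wild type and 1.53, 1.61 and 1.71 FPKM in lec1-4. The KCS16 libraries of lec1-4 lay close together, above wild type and far below dellaq. AT1G05450, of the lipid-transfer protein family, measured 25.5, 42.2 and 34.3 FPKM in dellaq, 0 to 0.517 FPKM in wild type and 0.210, 0.302 and 0.446 FPKM in lec1-4. AT2G48130, of the same family, measured 6.55, 14.5 and 9.99 FPKM in dellaq, 0.438 to 1.58 FPKM in wild type and 0.716, 0.171 and 0.285 FPKM in lec1-4.

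The redox and metal group was led by AT2G38380, a peroxidase family member, with 50.4, 98.7 and 65.8 FPKM in dellaq, 0.146 to 2.64 FPKM in wild type and 0.348, 0.333 and 0.475 FPKM in lec1-4. AtMT4b (AT2G23240), a metallothionein, which binds metal ions, measured 16.2, 28.04 and 30.9 FPKM in dellaq, 0.847 to 2.89 FPKM in wild type and 1.72, 2.81 and 1.65 FPKM in lec1-4. In both genes the lec1-4 values fell inside the wild-type range. GLYI8 (AT2G28420), a glyoxalase of methylglyoxal detoxification, measured 12.6, 20.8 and 17.1 FPKM in dellaq, 2.25, 0.849 and 2.72 FPKM in Col-0-1, 0.118, 0.211 and 0.0771 FPKM in Col-0-2, and 0.315, 0.151 and 0 FPKM in lec1-4. The 2 wild-type sets did not overlap for GLYI8. MSRB6 (AT4G04840), which reduces oxidized methionine, measured 4.56, 16.6 and 9.80 FPKM in dellaq, at most 0.159 FPKM in wild type and at most 0.0807 FPKM in lec1-4.

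The defensins, small cysteine-rich proteins of plant defence, differed in how even they were. LCR67 (AT1G75830, also known as PDF1.1) measured 1.67, 2.47 and 26.6 FPKM in dellaq, so that replicate 3 alone carried its mean of 10.3 ± 14.2 FPKM. It was at 0 in 5 of 6 wild-type and all 3 lec1-4 libraries, where 3 counts would have given a mean of 0.161 FPKM. AT4G22235 was the most even gene, with 11.9, 9.41 and 10.1 FPKM in dellaq, 1.14 to 2.28 FPKM in wild type and 1.98, 0.557 and 0.990 FPKM in lec1-4.

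The cell-wall type proteins included AT2G05580, a glycine-rich protein, with 43.6, 104 and 90.5 FPKM in dellaq, 0 to 0.502 FPKM in wild type and 0, 0.0610 and 0.0677 FPKM in lec1-4. AT5G15780, annotated as a Pollen Ole e 1 allergen and extensin family protein, measured 13.0, 24.4 and 20.2 FPKM in dellaq, 0.702 to 2.82 FPKM in wild type and 5.45, 6.41 and 8.24 FPKM in lec1-4. All lec1-4 libraries of AT5G15780 lay between wild type and dellaq. AT5G09480, a hydroxyproline-rich glycoprotein, measured 8.17, 49.3 and 15.5 FPKM in dellaq, 0.258 to 1.02 FPKM in wild type and 0.351, 0.588 and 0.560 FPKM in lec1-4. AT5G07330, annotated as an NFU1 iron-sulfur cluster protein, measured 16.8, 35.9 and 33.3 FPKM in dellaq, 0 to 1.16 FPKM in wild type and 2.10, 1.45 and 2.86 FPKM in lec1-4, again above all wild-type libraries.

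The polyketide cyclase family gene AT1G14950 measured 11.4, 29.4 and 22.6 FPKM in dellaq, 0 to 0.159 FPKM in wild type and 0.0810, 0 and 0 FPKM in lec1-4. Its relative AT2G25770 measured 9.13, 13.4 and 10.3 FPKM in dellaq, 1.03 to 2.24 FPKM in wild type and 0.881, 0.844 and 1.69 FPKM in lec1-4. The membrane protein gene AT2G33520 measured 11.9, 22.0 and 14.9 FPKM in dellaq, 0.993, 1.10 and 2.43 FPKM in Col-0-1, 0, 0.402 and 0 FPKM in Col-0-2, and 0, 0.107 and 0.119 FPKM in lec1-4. For AT2G33520, as for GLYI8, the wild-type sets did not overlap, and lec1-4 overlapped Col-0-2 and lay below Col-0-1. The pseudogene AT1G10705 measured 13.9, 20.6 and 19.6 FPKM in dellaq, 0 to 1.11 FPKM in wild type and 0, 0.271 and 0 FPKM in lec1-4.

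Of the 9 uncharacterized proteins, AT4G31830 was the highest, with 48.6, 104 and 80.5 FPKM in dellaq, 0.0946 to 1.49 FPKM in wild type and 0.755, 0.602 and 0.268 FPKM in lec1-4. AT1G68250 measured 9.26, 13.2 and 69.7 FPKM in dellaq, 0 in 5 of 6 wild-type libraries, and 0.781, 0 and 0.830 FPKM in lec1-4. AT1G62210 measured 3.91, 37.1 and 8.82 FPKM in dellaq and 0 in each lec1-4 library. These last 2 genes were each carried by a single dellaq library, replicate 3 and replicate 2, respectively. AT2G19320 measured 12.7, 29.5 and 20.3 FPKM in dellaq and AT5G20045 measured 8.51, 17.1 and 13.3 FPKM, and both were at 0 in all 6 wild-type libraries and in 2 of 3 lec1-4 libraries. AT1G07985 measured 5.53, 13.2 and 14.0 FPKM in dellaq, 0.137 to 1.16 FPKM in wild type and 1.09, 0.873 and 3.20 FPKM in lec1-4. The other 3, AT1G27990, AT1G62240 and AT3G15280, averaged 15.6, 15.5 and 10.7 FPKM in dellaq and 0.355, 0.958 and 0.788 FPKM in lec1-4.

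The 3 dellaq libraries were uneven over these genes. Replicate 1 was the lowest of the 3 in 40 of 41 genes, against 27.6% of all genes tested and 50.7% of those higher in dellaq than in both wild-type sets. Replicate 2 was the highest in 30 genes, against 26.6% of all genes tested, and replicate 3 in 10. The coefficient of variation over the dellaq libraries had a median of 39.9% and ran from 12.4% in AT4G22235 to 138% in LCR67. Without dellaq replicate 1 the same conditions chose 49 genes, and without replicate 2 they chose 34. Among the wild-type libraries, Col-0-1 replicate 3 was the highest of its set in 23 genes, against 37% of all genes tested, and 11 genes reached 2 FPKM there, against 2 and 1 in replicates 1 and 2.

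The thresholds fell within a continuous range of levels. LCR67, MSRB6 and AT2G48130, each at 10.3 FPKM, lay just inside the dellaq threshold, and PYK10 at 9.57, NADP-ME1 at 9.51 and AT3G03341 at 9.26 FPKM lay just outside. PYK10, a beta-glucosidase, was itself at 77.0 FPKM in lec1-4. AT5G15780 at 1.95, GLYI8 at 1.94 and AT4G22235 at 1.86 FPKM lay just inside the wild-type threshold. AT2G21820 at 2.03, the dehydrin gene LEA (AT2G21490) at 2.07 and DOG1 at 2.09 FPKM lay just outside it, with dellaq levels of 44.5, 154 and 11.3 FPKM, respectively.

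The level in lec1-4 was then compared with each wild-type set by limma on log2(FPKM + 1), with Benjamini-Hochberg adjustment over 20222 tested genes at 0.05. All 41 genes entered the test, as they had to, since the dellaq libraries alone took them past the low-value filter. Their wild-type values were kept low by the choice of genes, so the nearer background is the 1715 tested genes with both wild-type means below 2 FPKM, although these were not chosen on dellaq. In lec1-4, 8 of 41 genes were higher than in Col-0-1, against 15.8% of all genes tested and 16.3% of those 1715. In comparison with Col-0-2 10 of 41 were higher, against 42.7% and 31.5%, respectively. Neither share is a result about the 41 genes as a group. The 8 were higher than both sets, against 8.19% of all genes tested and 13.2% of the 1715. With median-ratio scaling, 6 of the 8 calls against Col-0-1 were made, without KCS16 and AT5G07330. Over the 41 genes the log2 change from Col-0-1 had a median of 0.00 and that from Col-0-2 a median of 0.04. These medians were 0.05 and 0.13 over all genes tested, and 0.09 and 0.18 over the 1715. Of the 41 genes, 20 had a log2 change above 0 against Col-0-1 and 24 against Col-0-2. These 2 counts have no background share beside them, and nothing is read from them.

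The LEA group held 4 of these 8 genes, out of its 7 members, against 8.19% of all genes tested and 13.2% of the 1715. The group was formed after the genes were known, and its share was not tested. AT3G15670 rose by 3.81 ± 0.55 (SE) on the log2(FPKM + 1) scale against Col-0-1 and by 4.18 ± 0.55 against Col-0-2 (adjusted p = 0.000324 and 3.19e-05). LEA4-5 rose by 3.11 ± 0.41 and 3.64 ± 0.41 (adjusted p = 0.000178 and 9.22e-06). AT3G17520 rose by 3.00 ± 0.43 and 3.08 ± 0.43 (adjusted p = 0.000295 and 4.95e-05). In these 3 genes every lec1-4 library was above every wild-type library. EM1 rose by 2.44 ± 0.64 and 2.28 ± 0.64 (adjusted p = 0.0148 and 0.00764), and without lec1-4 replicate 3 its call against Col-0-1 was lost (1.88, adjusted p = 0.063). AT1G72100 was higher than Col-0-2 (1.18 ± 0.30, adjusted p = 0.00391), and against Col-0-1 its change was 0.69 ± 0.30 (adjusted p = 0.109). GEA6 and AT2G42560 passed neither test.

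Outside the LEA group, AT1G04560 rose by 2.38 ± 0.43 against Col-0-1 and 2.53 ± 0.43 against Col-0-2 (adjusted p = 0.00163 and 0.000249). AT5G15780 rose by 1.40 ± 0.23 and 2.04 ± 0.23 (adjusted p = 0.000863 and 9.53e-06). AT5G07330 rose by 0.87 ± 0.27 and 1.37 ± 0.27 (adjusted p = 0.0341 and 0.00079), and KCS16 by 0.54 ± 0.19 and 0.79 ± 0.19 (adjusted p = 0.0496 and 0.00261). The calls of these last 2 genes against Col-0-1 were near the threshold and were lost under 7 and 12 of the 19 alternatives. The uncharacterized gene AT1G07985 was higher than Col-0-2 (0.92 ± 0.34, adjusted p = 0.0297) and passed no test against Col-0-1 (0.48 ± 0.34, adjusted p = 0.323). None of the 3 storage and oil body genes, 3 regulators, 4 redox genes or 2 defensins was higher in lec1-4 than in either wild-type set by this test. Of the 1715 tested genes with wild-type means below 2 FPKM, 16.3% were higher than Col-0-1 and 31.5% higher than Col-0-2. In groups this small, formed after the genes were known, nothing is read from the lack of calls.

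**Figure D2:**
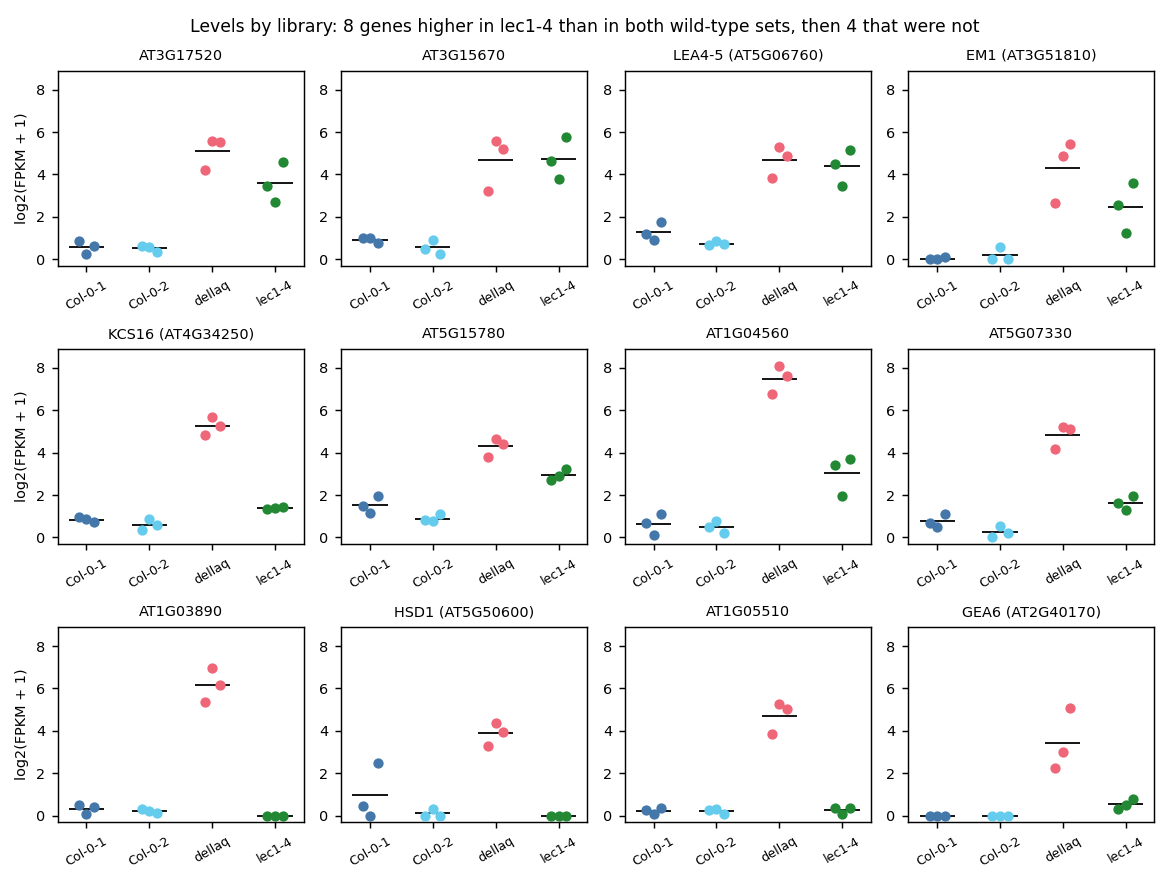
Level by library, as log2(FPKM + 1), for the 8 genes higher in lec1-4 than in both wild-type sets and for 4 that were not (AT1G03890, HSD1, AT1G05510 and GEA6); points are libraries in replicate order and lines are means of 3. The lec1-4 points of AT3G15670 and LEA4-5 reach the dellaq points, and those of AT1G03890 and HSD1 lie at 0.

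A change of at least 2 on the log2 scale against both sets, a size chosen after the values were seen, was reached by 5 of 41 genes: AT3G15670, LEA4-5, AT3G17520, EM1 and AT1G04560. The background was 0.153% of all genes tested and 1.57% of those with wild-type means below 2 FPKM. Every lec1-4 library lay above all 6 wild-type libraries in 9 of 41 genes, against 14.9% of all genes tested and 18.1% of those with wild-type means below 2 FPKM. These were the 8 and GEA6, which rests on 1, 2 and 3 fragments in the lec1-4 libraries and passed neither test. Of the 8, all were highest in lec1-4 replicate 3, against 41% of all genes tested, and 6 were lowest in replicate 2. Without lec1-4 replicate 3, 5 genes were higher than in Col-0-1.

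Falls in lec1-4 were limited by the low wild-type level that chose the genes. GLYI8, AT2G33520 and AT2G48130 were lower than in Col-0-1, 3 of 41 genes against 10.7% of all genes tested and 4.14% of those with wild-type means below 2 FPKM. GLYI8 fell by 1.29 on the log2 scale (SE 0.24, adjusted p = 0.00186), AT2G33520 fell by 1.18 (SE 0.24, adjusted p = 0.0036) and AT2G48130 fell by 0.71 (SE 0.24, adjusted p = 0.0483), the last call being lost under 13 of the 19 alternatives. Against Col-0-2, 0 of 41 genes were lower, against 23.3% of all genes tested and 12.7% of those with wild-type means below 2 FPKM.

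Set beside dellaq, lec1-4 was lower in 39 of 41 genes, against 20.2% of all genes tested, a count that the choice of genes with high dellaq levels nearly fixes and from which nothing is read. The exceptions were AT3G15670, with a log2 difference of 0.06 ± 0.55 (SE), and LEA4-5, with -0.28 ± 0.41. With these errors their levels are not shown to be equal. The mean level in lec1-4 was 99.2% of that in dellaq for AT3G15670, 83.3% for LEA4-5, 35.3% for AT3G17520, 34.9% for AT5G15780, 22.7% for EM1 and 20.4% for AT1G72100. It was 4.26% for AT1G04560 and below 5% in 27 genes in all, with a median of 2.06%. In lec1-4, 3 genes had a mean of 10 FPKM or more, 9 of 41 had 2 FPKM or more, against 88% of all genes tested and 16.3% of those with wild-type means below 2 FPKM, and 26 were below 1 FPKM.

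The wider lists of LEA, storage and oil body genes hold 7, 1 and 2 of the 41 genes, respectively. The 41 were chosen from all 33323 screened IDs, not from these lists. Of the LEA list, 31 tested genes were not among the 41. In dellaq 21 of these 31 were higher and 8 lower than in Col-0-1, where 19.4% of all genes tested were higher and 50.9% lower. Against Col-0-2, 20 were higher and 5 lower, where 21.9% of all genes were higher and 41.6% lower. In lec1-4 11 of the 31 were higher and 7 lower than in Col-0-1, where 15.8% of all genes were higher and 10.7% lower. Against Col-0-2, 19 were higher and 6 lower, where 42.7% of all genes were higher and 23.3% lower, so that the 6 lower are near the background. In lec1-4 8 were higher than both sets, against 8.19% of all genes tested, a count that was 4 with median-ratio scaling. The dehydrin gene LEA, just outside the wild-type threshold, averaged 154 ± 59.3 FPKM in dellaq and 0.619 ± 0.445 FPKM in lec1-4. ERD14, a dehydrin abundant in all groups, averaged 392 ± 19.2 FPKM in dellaq, 565 ± 18.7 and 599 ± 13.1 FPKM in Col-0-1 and Col-0-2, and 685 ± 20.5 FPKM in lec1-4.

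The storage list had 12 tested genes outside the 41, and all 12 were higher in dellaq than in both wild-type sets, against 9.78% of all genes tested. In lec1-4 12 of 12 were lower than in Col-0-1, against 10.7% of all genes tested. Lower than in Col-0-2 were 3 of 12 (5 with median-ratio scaling), against 23.3%, a share near the background. The albumin SESA3 averaged 10220 ± 3105 FPKM in dellaq, 943 ± 581 FPKM in Col-0-1, 29.3 ± 17.6 FPKM in Col-0-2 and 11.4 ± 8.77 FPKM in lec1-4. The oil body list had 7 such genes, of which 7 were higher in dellaq than in both sets. In lec1-4 7 of these 7 were lower than in Col-0-1 and 4 lower than in Col-0-2, against 10.7% and 23.3% of all genes tested. OLEO1, an oleosin that coats oil bodies, averaged 4673 ± 755 FPKM in dellaq, 765 ± 261 FPKM in Col-0-1, 105 ± 21.4 FPKM in Col-0-2 and 11.6 ± 7.19 FPKM in lec1-4. The comparisons of dellaq and of lec1-4 with wild type share the same wild-type libraries.

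Among 18 tested regulators of abscisic acid response and dormancy outside the 41, 9 were higher in dellaq than in both wild-type sets (11 with median-ratio scaling), against 9.78% of all genes tested. In lec1-4 3 of these 18 were higher and 3 lower than in both sets, against 8.19% and 4.01%. EEL, a bZIP factor of the abscisic acid response, averaged 230 ± 25.0 FPKM in dellaq, 103 ± 17.1 FPKM in Col-0-1, 39.3 ± 5.90 FPKM in Col-0-2 and 56.8 ± 6.57 FPKM in lec1-4. Among 11 desiccation and small heat shock genes, none of them in the 41, 6 were higher in dellaq than in both sets, against 9.78% of all genes tested, and 2 were lower in lec1-4 than in both, against 4.01%. PER1, a peroxiredoxin of dry seeds, averaged 226 ± 57.8 FPKM in dellaq, 28.3 ± 16.1 FPKM in Col-0-1, 1.69 ± 0.528 FPKM in Col-0-2 and 9.93 ± 5.32 FPKM in lec1-4.

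The upstream windows of the 41 genes were searched on both strands for 6 motifs and set beside the windows of 32834 genes. The ACGTG core was present in 24 of 41 windows (58.5%) against 21.6% of all windows, and the G-box CACGTG, which contains it, in 9 (22.0%) against 5.83%. The RY element CATGCA was present in 10 (24.4%) against 8.83%. The CCAAT box (CCAAT), the sequence that nuclear factor Y complexes recognise, was present in 13 (31.7%) against 45.1%. The gibberellin response element TAACAAA was present in 5 (12.2%) against 16.1%, and the heat shock element GAANNTTC in 1 (2.44%) against 9.29%. By group, 7 of 7 LEA windows held an ACGTG core, 5 a G-box and 0 an RY element, whereas 3 of 3 storage and oil body windows held an RY element, 2 an ACGTG core and 0 a G-box. Of the 8 genes higher in lec1-4 than in both wild-type sets, 7 held an ACGTG core and 1 an RY element, and of the other 33, 17 and 9 did. A match of letters describes the window and is not a binding site.

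**Figure D3:**
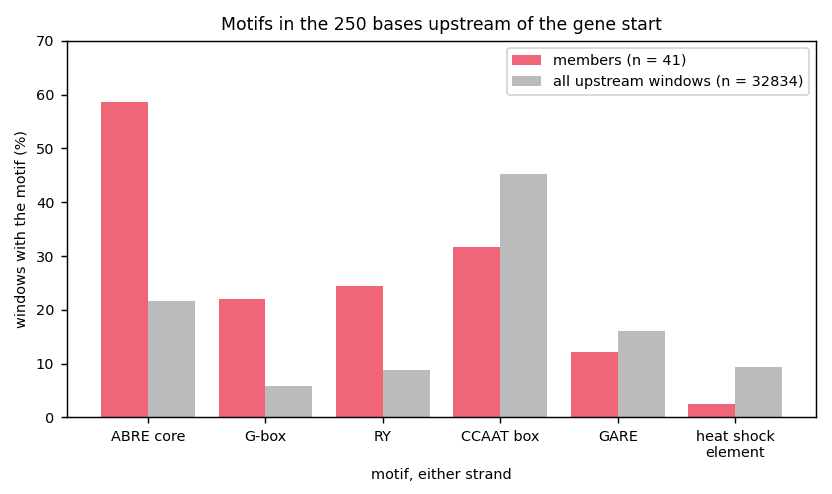
Share of 250-base upstream windows (vertical axis, percent, from 0) that hold each of 6 motifs on either strand, for the 41 genes and for all 32834 windows. The bars of the 41 genes are above the background for the ACGTG core (58.5% against 21.6%), the G-box and the RY element, and below it for the other 3 motifs.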

How the data were processed

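Poly-A RNA of developing seeds (3 µg of total RNA per sample, poly-T bead selection, random priming, no step that marks strand, per the labels' protocols) was sequenced in 12 libraries. The 4 deposited tables hold the authors' FPKM for each gene and library. HTSeq 0.6.1, TopHat2 2.0.12, DESeq 1.18.0 and Bowtie2 2.2.3 appear, with no roles, in the submitters' processing notes. The genome build, gene models and counting mode were not given in the sources used here. Reads of overlapping or antisense genes and of near-identical copies can therefore not be told apart. A count model was the planned test had the files held counts. Since they hold FPKM, limma-trend (limma 3.58.1, R 4.3.3) was run on log2(FPKM + 1), a scale that understates changes of low genes, in 1 model of 12 libraries that fits a mean for each group and leaves 8 residual degrees of freedom. The test was two-sided and covered genes that reached 1 FPKM in 3 or more libraries, with Benjamini-Hochberg adjustment at 0.05.

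Relative depth and whole fragments were recovered from the steps between low FPKM values. The tolerance was 0.01 fragments plus a small term that grows with the count. They came out whole for 41 of 41 genes and for 99.4% of 5139 low genes tried, as the smallest whole numbers that fit. Intervals and limits cover counting error only. No library was a repeat deposit of another: no pair had any non-zero value in common (at most 0 genes). Names, products, exons and upstream sequence came from RefSeq on TAIR10.1 by locus tag, which matched 32835 of the IDs and 41 of the 41 genes.

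The 41 genes, the 11 gene lists and the motifs were chosen with earlier results of these data known. Genes named with full values were the 20 highest in dellaq, the 10 highest in lec1-4, members of a list, those called against both wild-type sets, those nearest each threshold, and the 5 most and 5 least variable in dellaq. For each list, genes outside the 41 were named from the 3 highest in dellaq. The remaining genes among the 41 are given to account for each. Alternatives were other filters, pseudocounts, scalings, sample sets, a replicate block, single replicates left out, other thresholds, and, added after the data were seen, non-overlap of libraries.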

Additional observations from a re-analysis of the deposited data

How the results depend on the processing

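The number of genes chosen depended on the thresholds. It was 41 as reported, 81 with a dellaq threshold of 5 FPKM, 19 with 20 FPKM, 27 with a wild-type threshold of 1 FPKM, and 14 when every library rather than the mean had to pass. It was 48 with median-ratio scaling, 44 with upper-quartile scaling and 34 to 49 with single replicates left out. The count higher in lec1-4 than in Col-0-1, 8 as reported, was 5 to 8 with single replicates left out (lowest without lec1-4 replicate 3), 6 to 9 under the other planned settings and 9 by non-overlap of libraries. The count against Col-0-2, 10 as reported, was 9 to 11, 9 to 12 and 13, respectively. The count lower than dellaq, 39 as reported, was 38 to 39 with replicates left out and 34 under a filter of 5 FPKM, which leaves 36 of the genes tested. The choice of genes with high dellaq levels nearly fixes this count, so nothing is read from its steadiness. Deviations from the group means correlated at -0.102 to 0.189 over 18 same-numbered pairs, 2 of them over 0.1. Over the other pairs between groups they correlated at -0.160 to 0.161. These ranges do not settle whether the replicate numbers pair the samples. With the replicate block the 3 counts were 8, 10 and 39. Of 21 called changes of single genes, 16 kept their call and direction under all 19 alternatives and 0 reversed. The 5 that lost a call were those of KCS16, AT5G07330, AT2G48130 and EM1 against Col-0-1 and AT1G07985 against Col-0-2, and the cause was not tested. Depth limits what the lowest values mean, since many rest on 0 to 3 fragments.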

Other observations

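The 41 genes encode mostly short proteins. The median length was 183.5 residues over the 40 with a RefSeq protein, against 354 over all genes, and 22 of 40 were below 200 residues, against 23.5% of all genes. Of the 41 genes, 12 (29.3%) have a single exon, against 21.6% of all genes. Chromosomes 1 to 5 hold 14, 10, 5, 5 and 7 of them, where they hold 25.3%, 16.5%, 20.2%, 15.4% and 22.5% of the IDs that start with AT1G to AT5G.

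Most tested genes next to them on the chromosome were not higher in dellaq than both wild-type sets, although the share that was exceeded that of all genes tested. Adjacent genes below the low-value filter are not counted. Of 59 tested adjacent genes, 12 (20.3%) were higher in dellaq than in both wild-type sets, against 9.78% of all genes tested, and 9 (15.3%) were lower, against 28.4%. The cruciferin gene CRU2, next to AT1G03890, averaged 1232 FPKM in dellaq, 49.9 FPKM in Col-0-1, 1.27 FPKM in Col-0-2 and 2.80 FPKM in lec1-4. EDA4, next to AT2G48130, averaged 7.68 FPKM in dellaq, 0.289 and 0.532 FPKM in the wild-type sets and 0.163 FPKM in lec1-4. None of the 41 genes was adjacent to another, and 2 pairs lay within 10 genes of each other.

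LTI78, the tandem relative of LTI65 and also a stress-induced gene, averaged 12.1 ± 1.39 FPKM in Col-0-1, 2.36 ± 0.673 FPKM in Col-0-2, 6.29 ± 3.28 FPKM in dellaq and 10.4 ± 4.55 FPKM in lec1-4 (SD, n = 3 libraries). It was picked for its relation to LTI65 after values were known.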
